A study of Homo sapiens with 4 samples.

Results

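The TERT, NKD2 and SLC12A7 locus lies on the short arm of chromosome 5, at 5p15, and was taken here as hg19 chr5:900000-2000000, with CLPTM1L as the fourth gene whose start site was followed. It was chosen by measured values: in an earlier pass through the same files, loop counts of chromosome 5 between 1 and 2 Mb were higher in LS513 than in HCT116, so the levels below are a description of the locus and not a test of it. A chromatin loop or a same-anchor pair was a member when the midpoint of an anchor fell in the window, which gave 298 of 257012 pairs over the 4 libraries: 124 of 84243 in SW620, 120 of 95500 in LS513, 40 of 61673 in HCT116 and 14 of 15596 in SW480. The data are H3K27ac HiChIP, in which chromatin contacts made by MboI digestion and ligation are enriched with an antibody against a histone mark of active promoters and enhancers, and each value is a number of paired-end tags (PETs) joining 2 anchors.

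All 4 samples were untreated colorectal cancer lines from ATCC, with 1 library each. HCT116 (CCL-247) comes from a colorectal carcinoma, LS513 (CRL-2134) from a Dukes' type C colorectal carcinoma, SW480 (CCL-228) from a Dukes' type B colorectal adenocarcinoma and SW620 (CCL-227) from a Dukes' type C one. SW480 and SW620 are known to derive from a primary tumour and a later lymph node metastasis of the same patient. With 1 library a line there was no spread between replicates, so no p-value is given, and every interval is a 95% exact interval for counting error alone, since PETs carry no molecular identifiers. Colonic marker genes were not checked, since hg19 gene annotation was not used here.

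TERT encodes the catalytic reverse transcriptase of telomerase, which extends chromosome ends and is silent in most adult somatic cells but active in most tumours. NKD2, a Naked cuticle homologue, binds Dishevelled and restrains Wnt signalling, the pathway that drives most colorectal tumours. SLC12A7 encodes the potassium-chloride cotransporter KCC4, and CLPTM1L, also called CRR9, encodes a membrane protein linked to survival under cisplatin. In the RefSeq order of GRCh38.p14, NKD2 and SLC12A7 are neighbours, SLC6A19 and SLC6A18 lie between SLC12A7 and TERT, and CLPTM1L follows TERT. NKD2 is transcribed towards higher coordinates and the other 3 towards lower ones, so SLC12A7 points at NKD2.

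The 250 bases before each start site are shown because anchors covered or missed these promoters in different lines. They are taken from RefSeq (GRCh38.p14, all 4 of 4 genes matched) at chr5:1008552-1008801 on the plus strand for NKD2, and on the minus strand at chr5:1112064-1112313 for SLC12A7, chr5:1295069-1295318 for TERT and chr5:1345100-1345349 for CLPTM1L. Capitals mark GATC, the MboI cutting site whose ends HiChIP ligates, and CACGTG, the E-box.
NKD2: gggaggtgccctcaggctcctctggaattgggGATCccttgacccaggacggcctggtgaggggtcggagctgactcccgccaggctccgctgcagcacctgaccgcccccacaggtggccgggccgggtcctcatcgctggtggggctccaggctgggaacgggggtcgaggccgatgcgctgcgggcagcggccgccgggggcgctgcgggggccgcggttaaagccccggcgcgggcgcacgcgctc
SLC12A7: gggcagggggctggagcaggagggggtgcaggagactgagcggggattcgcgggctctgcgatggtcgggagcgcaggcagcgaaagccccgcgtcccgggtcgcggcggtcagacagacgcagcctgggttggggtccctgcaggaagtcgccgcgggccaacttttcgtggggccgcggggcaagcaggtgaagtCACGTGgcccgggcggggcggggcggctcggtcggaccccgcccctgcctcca
TERT: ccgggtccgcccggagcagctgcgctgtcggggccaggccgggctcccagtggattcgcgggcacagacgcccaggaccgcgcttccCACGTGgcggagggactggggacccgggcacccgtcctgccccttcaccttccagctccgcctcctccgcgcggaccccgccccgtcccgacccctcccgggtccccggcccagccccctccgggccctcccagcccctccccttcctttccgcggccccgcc
CLPTM1L: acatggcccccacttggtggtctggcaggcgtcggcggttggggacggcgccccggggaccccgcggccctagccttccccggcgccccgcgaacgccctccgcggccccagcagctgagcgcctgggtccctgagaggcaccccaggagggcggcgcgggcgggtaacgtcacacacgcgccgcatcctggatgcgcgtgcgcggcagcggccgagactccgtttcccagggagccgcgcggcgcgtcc
All 4 promoters were GC-rich, at 75.6% for NKD2, 74.4% for SLC12A7, 78.8% for TERT and 77.2% for CLPTM1L, against a median of 58.0% over 35116 promoters. GATC occurred only in the NKD2 stretch, against 35.8% of all promoters. CACGTG occurred in those of SLC12A7 and TERT, against 6.34% of all. The GC box GGGCGG, searched like the others on both strands, was present 1 time for NKD2, 4 times for SLC12A7 and 2 times each for TERT and CLPTM1L, against 42.6% of promoters with at least 1, and CCGGAA, the ETS core, in none of the 4, against 14.5%.

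The libraries differed in depth, so counts are also given per 1000000 PETs (ppm), with same-anchor PETs per same-anchor PETs of the library. Filtered loops, which join different anchors at least 5 kb apart, held between 13885 PETs in SW480 and 222113 in LS513, and same-anchor pairs, whose tags both fall in 1 anchor, held between 130508 and 1386645. Chromosome 5 gave 2.99% to 4.91% of loop PETs. For ratios a count of 0 was set to 3 PETs, which is 13.5 ppm of loop PETs in LS513 and 216 in SW480, the shallowest library. The exact interval for 0 PETs reached 16.6 ppm in LS513 and 266 in SW480.

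SW620 had the most loop PETs over the locus, LS513 was next, and HCT116 and SW480 were lowest. SW620 had 487 PETs in 102 loops, LS513 377 in 102, HCT116 50 in 24 and SW480 13 in 6. Of filtered PETs this was 3195 ppm (2918 to 3491) in SW620, 1697 ppm (1530 to 1877) in LS513, 936 ppm (499 to 1601) in SW480 and 613 ppm (455 to 808) in HCT116. The intervals of HCT116, LS513 and SW620 lay apart, while that of SW480 reached into those of both HCT116 and LS513. As a share of chromosome 5 PETs, the locus held 8.95% (8.21 to 9.74) in SW620, 4.17% (3.77 to 4.60) in LS513, 2.05% (1.52 to 2.69) in HCT116 and 1.91% (1.02 to 3.24) in SW480.

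LS513 was 2.77-fold above HCT116 (2.06 to 3.80), or 2.04-fold (1.51 to 2.79) per chromosome 5 PETs. Of 1572 windows of the same length over the genome, 8.84% were at least 2-fold higher in LS513, and nothing is read from the place of this window among them, since it was chosen on that contrast. SW620 was 1.88-fold (1.64 to 2.16) above LS513, or 2.15-fold (1.87 to 2.46) per chromosome 5 PETs, so its side of the 2-fold line, which 24.1% of windows passed, depended on the scaling. It was 5.21-fold (3.89 to 7.12) above HCT116, where 23.4% of windows passed 2-fold, and 3.41-fold (1.98 to 6.46) above SW480, where 27.5% did. Over SW480 the direction turned when each library kept only its own anchors overlapping one in every other, to 0.628 (0.310 to 1.44), from 62 and 9 PETs. Of those 9 SW480 PETs, 6 joined 2 anchors that both lie inside 1 SW620 anchor, where SW620 could count no loop. No direction is therefore read from this ratio. Between merged regions, in which overlapping anchors of the 4 libraries are joined, the ratio was 6.31 (3.04 to 15.8), from 485 and 7 PETs. SW480 over HCT116 was 1.53 (0.761 to 2.85), which counting error did not separate from 1. The SW620 ratios over LS513 and HCT116 include 152 loop PETs with an end at chr5:906397-934281, where LS513 and HCT116 had no anchor. SW620 anchors covered 322 kb of the locus, against 144 kb in each of those lines. With only each library's own anchors that overlap one in every other library, SW620 over LS513 was 6.02 (3.39 to 11.4), from 62 and 15 PETs. These were not a common set, since the NKD2 anchor was kept in SW620 and dropped in LS513, so the ratio does not compare like anchors.

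Same-anchor PETs, which reflect how much of the chromatin at an anchor was captured, put the lines in the same order. HCT116 had 634, LS513 2366, SW480 179 and SW620 2151, which is 735 (679 to 794), 1706 (1638 to 1776), 1372 (1178 to 1588) and 2547 (2441 to 2657) ppm of same-anchor PETs. The 25 anchors of SW620 covered 322 kb of the locus, against 144 kb for the 18 anchors of HCT116 and of LS513 and 63.1 kb for the 8 of SW480. Scaled by anchor length as well as depth, SW620 was below LS513 (ratio 0.667) and below SW480 (0.365), so the higher same-anchor level of SW620 went with wider anchors. Loop PETs per 100 same-anchor PETs in the locus were 22.6 in SW620, 15.9 in LS513, 7.89 in HCT116 and 7.26 in SW480, against 18.0, 16.0, 9.45 and 10.6 in the whole libraries.

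**Figure D1:**
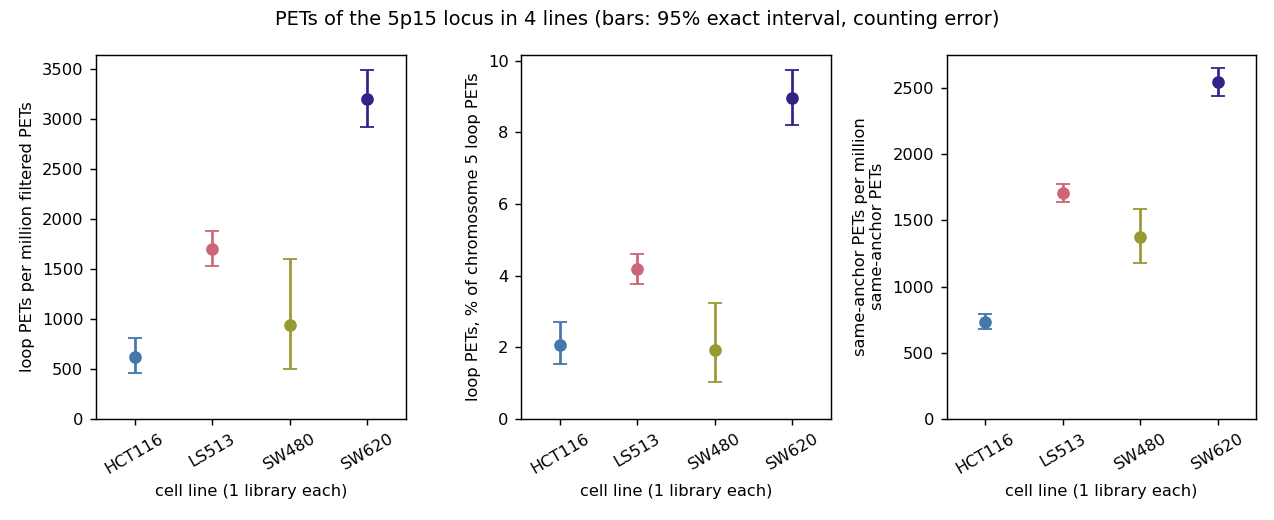
PETs of the 5p15 locus in the 4 lines (x axis, 1 library each): loop PETs in ppm of filtered PETs on the left, as % of chromosome 5 loop PETs in the middle, and same-anchor PETs in ppm of same-anchor PETs on the right; points are values and bars 95% exact intervals for counting error. SW620 is highest in each panel, at 3195 ppm, 8.95% and 2547 ppm, and LS513 is next.

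NKD2, the Wnt antagonist, was covered by an anchor at its start site in HCT116, LS513 and SW620. The anchor was hg19 chr5:997182-1015592 in HCT116 and LS513 and the wider chr5:988327-1031979 in SW620. Within 2.5 kb of the start site, loop PETs were 8 in HCT116, 72 in LS513 and 119 in SW620, or 98.1 (42.3 to 193), 324 (254 to 408) and 781 (647 to 934) ppm, with no overlap between the 3 intervals. LS513 was 3.31-fold above HCT116 (1.59 to 7.95) and SW620 2.41-fold above LS513 (1.78 to 3.27). Of the SW620 PETs, 26 ran to chr5:906397-934281, where HCT116 and LS513 had no anchor and could not be counted. SW480 had no anchor there, the nearest being chr5:989238-991899, 17.1 kb away with 2 same-anchor PETs, so its NKD2 loops could not be counted.

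At NKD2, loops and same-anchor PETs did not follow the same order. Same-anchor PETs were 109 in HCT116, 445 in LS513 and 227 in SW620, or 126, 321 and 269 ppm. SW620 was thus slightly below LS513 at 0.838 (0.711 to 0.985), and level with it, at 1.00 (0.850 to 1.18), when scaled by chromosome 5. Loop PETs per 100 same-anchor PETs at NKD2 were 7.34 in HCT116, 16.2 in LS513 and 52.4 in SW620, where the 26 PETs to chr5:906397-934281 are included.

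SLC12A7, the cotransporter gene, was the only one of the 4 with an anchor over its start site in every line. Loop PETs there were 131 in SW620, 125 in LS513, 15 in HCT116 and 7 in SW480, or 859 (719 to 1020), 563 (468 to 670.5), 184 (103 to 303) and 504 (203 to 1038) ppm. HCT116 was lowest and SW620 highest, with SW480 too shallow to be placed among the other lines. LS513 was 3.06-fold above HCT116 (1.79 to 5.63), and SW620 was 1.53-fold above LS513 (1.19 to 1.97) and 1.70-fold above SW480 (0.804 to 4.32). The anchor was chr5:1104440-1122767 in HCT116 and LS513, chr5:1104440-1113470 in SW480 and chr5:1090888-1167184 in SW620, and same-anchor PETs were 106, 488, 24 and 828. Loops of 52, 17 and 12 PETs in LS513 and of 6 PETs in SW480 ran from it to anchors inside the wider SW620 anchor. SW620 could not count such contacts as loops, so its loop ratios here do not compare like anchors.

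The SW620 anchor at SLC12A7, 76.3 kb long, ran over the ground of 4 separate anchors of HCT116 and LS513. The same-anchor ratio of SW620 to LS513 was 2.79 (2.49 to 3.12) with each library's own anchors. When overlapping anchors of the 4 libraries were merged into common regions and every PET inside a region was counted, HCT116 had 261 PETs in the SLC12A7 region, LS513 1082, SW480 67 and SW620 828, or 273, 659, 459 and 815 ppm of all same-chromosome PETs, same-anchor pairs included. The ratio of SW620 to LS513 was then 1.24 (1.13 to 1.35), and that of LS513 to HCT116 2.41 (2.11 to 2.77). Loops from this merged region to others held 131 PETs in SW620, 98 in LS513, 11 in HCT116 and 3 in SW480. In these, SW620 was 1.95-fold above LS513 (1.49 to 2.56) and 3.98-fold above SW480 (1.33 to 19.5), and LS513 3.27-fold above HCT116 (1.75 to 6.77).

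The loop with most PETs in LS513 lay inside this region, from the SLC12A7 anchor to chr5:1126951-1135192, on the far side of the start site from NKD2. It held 52 PETs in LS513 and 5 in HCT116, with a false discovery rate in the authors' deposited table listed at 0 and at 0.0868. In SW480 the loop with most PETs joined the SLC12A7 anchor to chr5:1152993-1167184, with 6 PETs and a deposited rate of 0.0176.

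**Figure D2:**
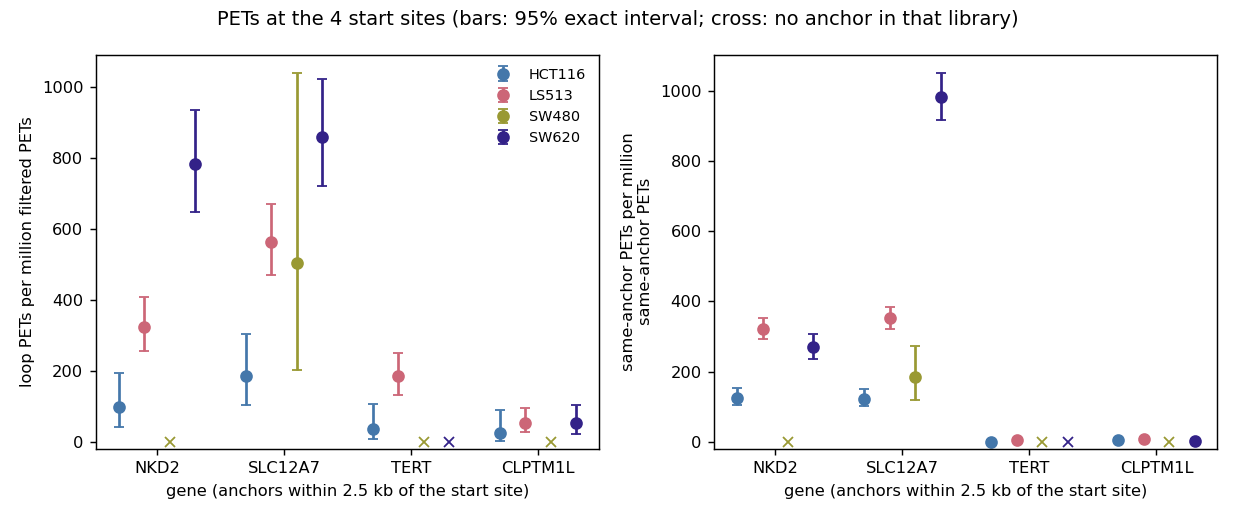
Loop PETs in ppm of filtered PETs (left) and same-anchor PETs in ppm of same-anchor PETs (right) of anchors within 2.5 kb of each start site (x axis), by line; points are values, bars 95% exact intervals and crosses libraries with no anchor there. NKD2 and SLC12A7 rise from HCT116 to LS513 to SW620 in loop PETs, at 98.1, 324 and 781 and at 184, 563 and 859 ppm, while TERT has an anchor only in HCT116 and LS513.

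The promoters of NKD2 and SLC12A7, 103 kb apart, were joined by a loop in 3 lines. It held 4 PETs in HCT116, 18 in LS513 and 23 in SW620, or 49.0 (13.4 to 126), 81.0 (48.0 to 128) and 151 (95.7 to 226) ppm, with overlap between neighbouring intervals. The authors' deposited table gives false discovery rates of 3.55e-05 in HCT116 and 2.00e-09 in LS513, and lists 0 in SW620. Between merged regions, which take in the smaller LS513 anchors beside SLC12A7, the pair held 5, 39 and 23 PETs, or 61.3, 176 and 151 ppm, so SW620 was not above LS513 on common regions. SW480 had no NKD2 anchor at the start site and no such loop.

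No other pair of the 4 promoters was joined by more than 3 PETs. SLC12A7 and the TERT flank had 3 PETs in LS513, NKD2 and the TERT flank 1 in LS513, and SLC12A7 and CLPTM1L 2 in SW620. TERT and CLPTM1L, whose start sites are 50.0 kb apart, were joined by 0 PETs in HCT116 and LS513, the lines with an anchor within 2.5 kb of both. In SW620 the nearest anchor to TERT, 3.54 kb from its start site, had 2 PETs to the CLPTM1L anchor. NKD2 and CLPTM1L were joined by 0 PETs in the 3 lines with both anchors.

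Before NKD2, at lower coordinates, SW620 had more loop PETs than the other lines, and SW480 shared some but not all of its anchors there. SW620 had anchors at chr5:906397-934281, chr5:935234-940606, chr5:942455-967939 and chr5:975227-984886. They made 152, 22, 172 and 105 loop PETs in SW620, loops between them counted at both ends. The 3 loops with most PETs in SW620 all ended at chr5:942455-967939: 49 PETs to chr5:906397-934281, 40 to chr5:975227-984886 and 33 to the NKD2 anchor. From this same stretch, 24 PETs ran from chr5:906397-934281 and 24 from chr5:942455-967939 to the SLC12A7 anchor, each listed at a deposited rate of 0. Just outside the window, SW620 had 12 PETs from chr5:889273-896339 to chr5:906397-934281 and 12 to the SLC12A7 anchor, which count through their anchor inside.

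HCT116 and LS513 had no anchor at chr5:906397-940606, so nothing could be counted there. From the merged region at chr5:942455-967939 HCT116 had 1 loop PET and LS513 18. In that region SW620 was 13.9-fold above LS513 in loop PETs (8.55 to 24.1) and 5.54-fold (4.14 to 7.49) in PETs within it, with an anchor of 25.5 kb against 13.0 kb. Per kb of anchor, its same-anchor level was 9.71 ppm, against 3.38 in LS513 and 2.76 in HCT116. SW480 had no anchor in this region, nor at chr5:935234-940606, while PETs within it were 31 in HCT116, 61 in LS513 and 209 in SW620. SW480 had anchors at chr5:929420-935233, with 21 same-anchor PETs, and at chr5:975227-983602, with 85, and its second loop by PETs joined them with 3 PETs at a deposited rate of 0.277. Its other loops in the locus held 1 PET each, apart from the 6-PET loop at SLC12A7.

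The merged region at chr5:975227-984886 had PETs in all 4 lines, and there SW480 was highest. It held 85 PETs in SW480, 381 in SW620, 165 in LS513 and 52 in HCT116, or 583, 375, 100.5 and 54.4 ppm of same-chromosome PETs. SW480 was 10.7-fold above HCT116 (7.50 to 15.4), and SW620 was 3.73-fold above LS513 (3.10 to 4.51) and below SW480 at 0.643 (0.507 to 0.824). These levels are shares of PETs in each library's own anchors, of which SW480 had 9350, against 21930 to 24555 in the other lines. Whether the smaller anchor set raised the SW480 level was not tested. The anchors were 9.66 kb long in SW620, 8.38 kb in SW480 and 3.21 kb in HCT116 and LS513. Per kb of anchor the same-anchor level was 77.8 ppm in SW480, 46.7 in SW620, 37.1 in LS513 and 18.8 in HCT116, the same order as without length.

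**Figure D3:**
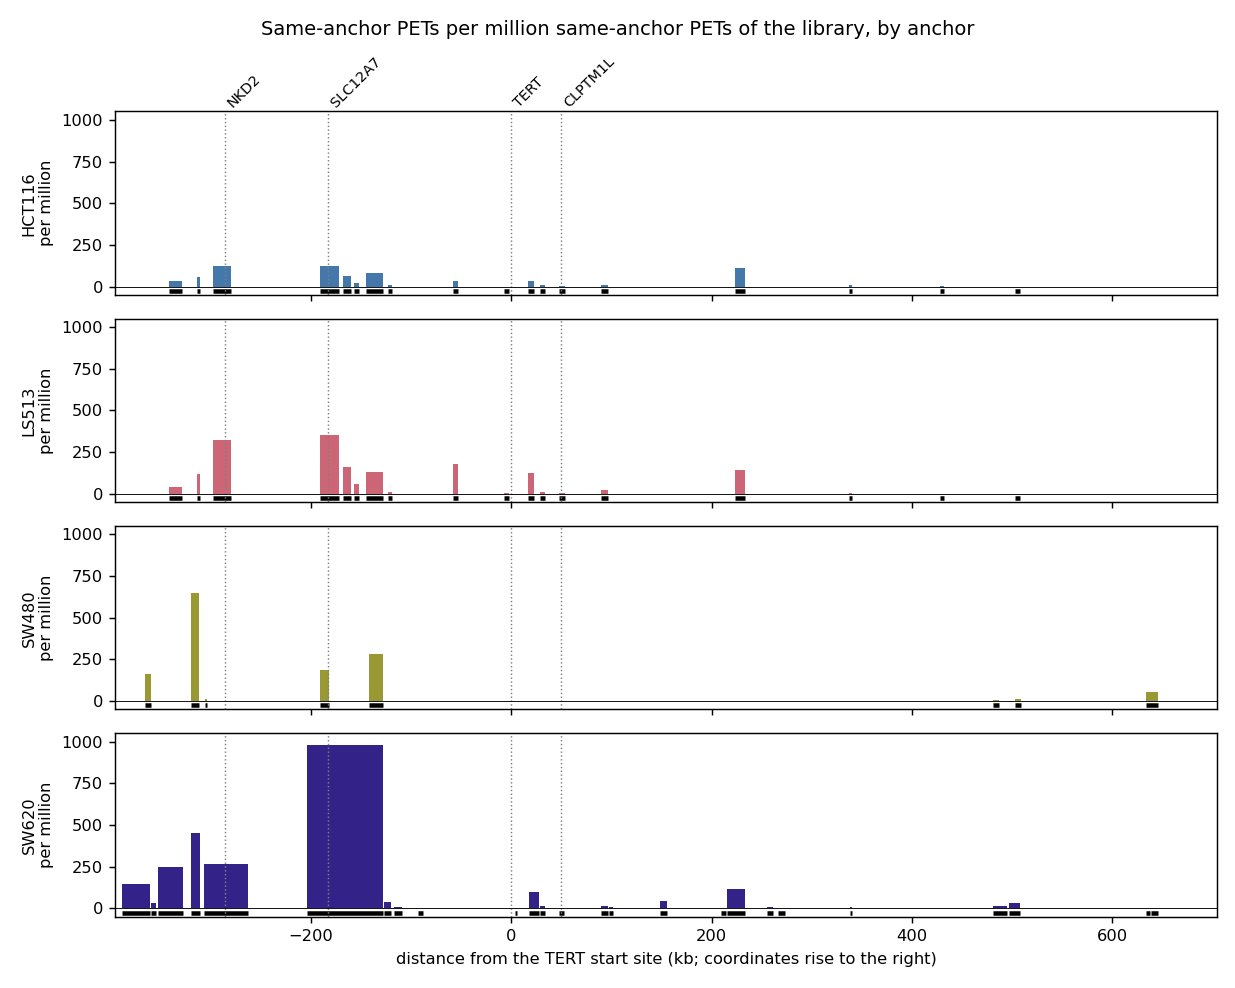
Same-anchor PETs in ppm of the library's same-anchor PETs (y axis) by anchor along the locus, with distance from the TERT start site in kb (x axis); bar width is the anchor's length, black marks are anchors, and dotted lines are the 4 start sites. Before NKD2, 1 anchor reaches 651 ppm in SW480 and 451 in SW620, where the anchor of LS513 has 119 and that of HCT116 60.3, and SW480 has no anchor around TERT and CLPTM1L.

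TERT had no anchor over its start site in any of the 4 lines. In HCT116 and LS513 the nearest was chr5:1288028-1293273, 1.73 kb from the start site in the direction of transcription. In SW620 it was chr5:1298543-1300836, 3.54 kb away on the other side, and in SW480 chr5:1152993-1167184, 128 kb away. The stretch around the start site without an anchor was 609 kb long in SW480, 91.9 kb in SW620 and 18.8 kb in HCT116 and LS513, so no TERT loops could be counted within 2.5 kb of the start site in SW480 and SW620.

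The TERT flank carried loops in LS513 and almost no same-anchor PETs. Its anchor had 41 loop PETs in 10 loops in LS513 and 3 in 3 loops in HCT116, or 185 (132 to 250.4) and 36.8 (7.58 to 107) ppm, a ratio of 5.02 (1.60 to 25.3). Against these stood 5 same-anchor PETs in LS513 and 0 in HCT116. An excess of loop over same-anchor PETs was shared by 20.6% of LS513 anchors with at least 10 loop PETs, and by 4 of 15 such anchors in the locus.

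The partners of the TERT flank in LS513 lay on both sides of the gene. It had 17 PETs to chr5:1312069-1318070, centred 20.1 kb above the start site, at a deposited rate of 2.99e-05. It had 9 PETs to chr5:1237125-1242453, centred 55.2 kb below, at a rate of 0.0231, and 4 to chr5:1172517-1176443. The anchors 20.1 kb above and 55.2 kb below were also joined to each other, by 11 PETs at a rate of 0.00197. In HCT116 the flank had 1 PET to chr5:1312069-1318070 and none to chr5:1237125-1242453.

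The anchor 55.2 kb below TERT showed the largest ratios of LS513 to HCT116 among locus anchors with PETs in both. Its loop PETs were 52 in LS513 and 2 in HCT116, a ratio of 9.55 (2.51 to 80.9), and its same-anchor PETs 248 and 29, a ratio of 5.32 (3.61 to 8.11). SW480 and SW620 had no anchor there. The anchor 20.1 kb above TERT had 174 same-anchor PETs in LS513 and 30 in HCT116, a ratio of 3.61 (2.44 to 5.51), and 57 and 9 loop PETs. SW620 had 81 PETs within the merged region there and 26 loop PETs, 0.752 (0.571 to 0.985) and 0.665 (0.401 to 1.07) of the LS513 levels.

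CLPTM1L was low in each line that had an anchor at its start site. Loop PETs were 2 in HCT116, 12 in LS513 and 8 in SW620, or 24.5 (2.97 to 88.6), 54.0 (27.9 to 94.4) and 52.5 (22.7 to 103) ppm, with all 3 intervals overlapping. LS513 over HCT116 was 2.20 (0.491 to 20.3) and SW620 over LS513 0.971 (0.344 to 2.58). Same-anchor PETs were 4, 9 and 1, and the nearest SW480 anchor was 178 kb away.

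**Figure D4:**
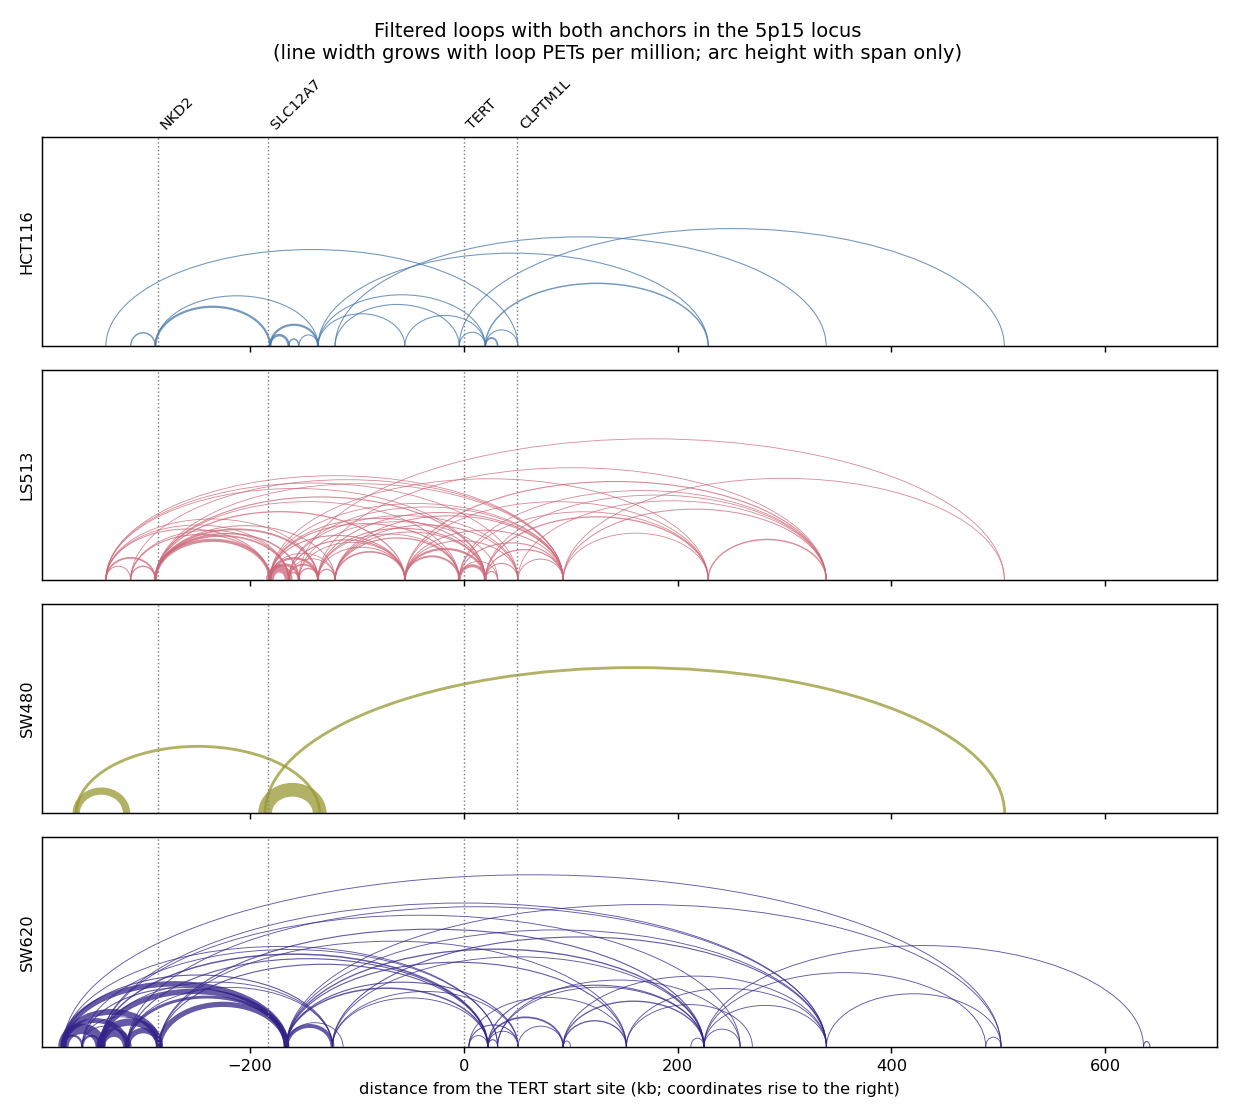
Filtered loops with both anchors in the locus, 1 panel a line, against distance from the TERT start site in kb (x axis); line width grows with loop PETs in ppm, so 1 PET is a thicker line in the shallow SW480 library, and arc height shows span only. SW620 arcs crowd between the stretch before NKD2 and SLC12A7, LS513 arcs run from SLC12A7 past TERT, and SW480 has no arc ending between the SLC12A7 region and the anchor 506 kb above TERT.

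The ends of the counted loops were placed differently along the locus, and each library could be counted only where it had anchors. Counted between merged regions, the 4 regions before NKD2 held 66.7% (34.9 to 90.1) of loop ends in SW480, where this is 8 of 12 ends, 51.9% (48.5 to 55.3) in SW620, 6.20% (4.22 to 8.73) in LS513 and 5.00% (1.04 to 13.9) in HCT116. These intervals take the 2 ends of a PET as separate, which they are not, so they are not exact for counting error. In SW480, both ends of the loop of 3 PETs from chr5:929420-935233 to chr5:975227-983602 fall before NKD2. The regions from SLC12A7 to the TERT start held 0 of 12 ends in SW480, 3.22% (2.15 to 4.62) in SW620, 24.8% (21.0 to 28.9) in LS513 and 13.3% (5.94 to 24.6) in HCT116. SW480 had no anchor in them, so its 0 was fixed in advance. SW620 had none 55.2 kb below TERT or at the TERT flank. Before NKD2, HCT116, LS513 and SW480 had anchors in only 2 of the 4 regions, and SW620 in all 4. Loops inside a merged region were left out, which took loop PETs from 377 to 277 in LS513 and from 50 to 38 in HCT116. SW480 fell from 13 to 7 and SW620 from 487 to 485. Among those left out were the 52-PET loop of LS513 and the 6-PET loop of SW480, both at SLC12A7. Without them, the NKD2 region took 13.3% to 14.9% of ends in HCT116, LS513 and SW620, and the SLC12A7 region 15.1% to 20.2%. With each line's own anchors, the SLC12A7 anchor had 125 of 377 loop PETs in LS513 and 15 of 50 in HCT116. It had 7 of 13 in SW480 and 131 of 487 in SW620.

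**Figure D5:**
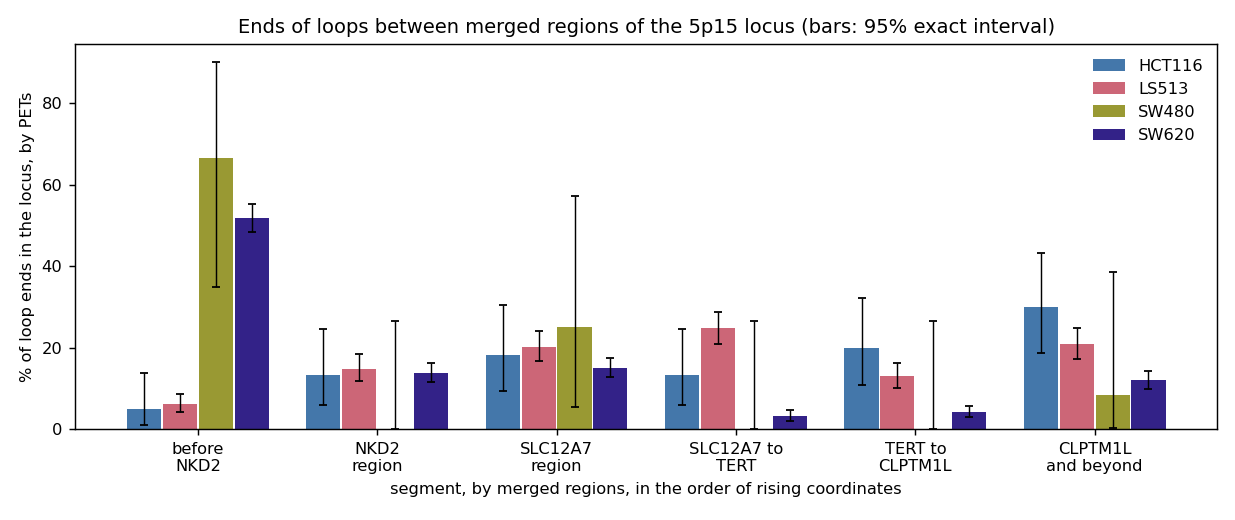
Share of loop ends, by PETs, in 6 segments of the locus in the order of rising coordinates (x axis), for loops between merged regions. Bars start at 0, and error bars are 95% binomial intervals that take the 2 ends of a PET as separate. SW480 and SW620 have 66.7% and 51.9% of ends before NKD2, against 5.00% and 6.20% in HCT116 and LS513, and LS513 has 24.8% between SLC12A7 and TERT against 3.22% in SW620. SW480 has no anchor between SLC12A7 and TERT. Before NKD2, HCT116, LS513 and SW480 have anchors in only 2 of the 4 regions. Loops inside a merged region are left out.

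Most contacts between merged regions were seen in 1 line, but most PETs lay in contacts of 2 or 3 lines. Between merged regions there were 147 pairs with 807 PETs, of which 108 pairs (265 PETs) were seen in 1 line, 27 (301) in 2, 12 (241) in 3 and 0 in all 4, where SW480, with 7 such PETs, sets the limit. Regions such as chr5:906397-935233 had an anchor in only some lines, so their pairs could not recur in all. The like share over the genome was not computed. NKD2 to SLC12A7 was among the 12, as was NKD2 to chr5:975227-984886, with 2 PETs in HCT116, 5 in LS513 and 24 in SW620. Loops of 1 PET made up 56.9% of those in the locus in SW620, 49.0% in LS513, 62.5% in HCT116 and 66.7% in SW480, near the 61.9%, 56.9%, 66.5% and 64.3% of the whole libraries. A deposited false discovery rate under 0.01 was given to 34 loops in SW620 (33.3%), 25 in LS513 (24.5%), 4 in HCT116 (16.7%) and 0 of 6 in SW480, against 17.2%, 18.2%, 12.8% and 14.5% of all loops of these libraries.

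HCT116 and LS513 can be compared anchor by anchor, since all 18 anchors of the locus have identical coordinates in both. In loop PETs, 15 of the 18 had at least 10 PETs in the 2 libraries together, and 13 of these were at least 2-fold higher in LS513, against 16.2% of 12733 anchors over the genome. The median ratio was 3.06 in the locus and 1.04 over all such anchors. In same-anchor PETs, 15 of 18 were tested in this way and 6 were at least 2-fold higher, against 9.07% of 18241 anchors, with medians of 1.97 and 0.849. The window was chosen on this contrast, so nothing is read from these shares. The anchors passing in same-anchor PETs were those of NKD2 and SLC12A7, the next 2 beyond SLC12A7 at chr5:1126951-1135192 and chr5:1137934-1143265, and those 55.2 kb below and 20.1 kb above TERT. The lowest same-anchor ratio among the 15 was 0.934 (0.297 to 3.19), at chr5:1632319-1635613, with 9 and 6 PETs.

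The most distant strong contact of the locus joined chr5:269126-272790 to chr5:1632319-1635613, 1363 kb apart. It held 11 PETs in HCT116, 33 in LS513 and 25 in SW620, where the anchors were chr5:270500-273524 and chr5:1633053-1635271, or 135, 149 and 164 ppm, and it was listed at a deposited rate of 0 in each. The 3 levels lay closer together than those of the locus as a whole. Its PETs exceeded the same-anchor PETs of both anchors in LS513 (18 and 9) and SW620 (4 and 6), a property of 0.327% and 0.781% of loops with at least 10 PETs in those libraries. The contact is uncertain, because whether near-identical sequence at the 2 anchors shared reads was not tested. SW480 had no anchor at chr5:1632319-1635613. Without the longest loops of that region, this contact among them, locus loop PETs were 3.23-fold (2.32 to 4.62) higher in LS513 than in HCT116. For SW620 over LS513 the ratio was then 1.96 (1.70 to 2.26).

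On the side of the chromosome end, the ratios between lines were smaller than in the locus. The 900 kb at the chromosome end held 202 loop PETs in LS513, 185 in SW620, 43 in HCT116 and 16 in SW480, with ratios of 1.73 (1.24 to 2.46) for LS513 over HCT116, 1.33 (1.09 to 1.64) for SW620 over LS513 and 1.05 (0.632 to 1.88) for SW620 over SW480. Loops were counted by either anchor, so those from the locus to this stretch are in both totals. They held 70 PETs in LS513, 95 in SW620, 16 in HCT116 and 2 in SW480, and ratios without them were not computed. The window after the locus, chr5:2000001-3100000, held 5 loop PETs in SW620, 1 in SW480 and 0 in LS513 and HCT116. SW620 was at least 2.43-fold above LS513, a bound set by 3 PETs in the LS513 library. All 5 SW620 PETs joined the locus to chr5:2146463-2152382 and were already counted in it, so this ratio says nothing of a separate stretch. Among 106 windows of chromosome 5 compared by their log2 levels centred over the 4 libraries, the most alike were chr5:79000001-80100000 at a distance of 0.879, with 26, 85, 4 and 140 loop PETs for HCT116, LS513, SW480 and SW620, then chr5:76800001-77900000 at 1.23, with 14, 48, 0 and 48, and chr5:174700001-175800000 at 1.28, with 12, 65, 5 and 56.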

How the data were processed

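H3K27ac HiChIP of 4 cell lines, 1 library each, was prepared with MboI and Nextera Tn5, per the labels' protocols. HiC-Pro and hg19 (GRCh37) are named in the submitters' processing notes; for the loop caller, peak caller and anchors the tool is not given in the sources used here. Raw PET counts for pairs of anchors were deposited by the authors: filtered pairs at least 5 kb apart, unfiltered pairs with same-anchor pairs, and interchromosomal pairs. A further deposited column was read as an adjusted p-value, the false discovery rate of each loop, from its range of 0 to 1.

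Loops and same-anchor pairs with an anchor midpoint in the window were summed with Python 3.11.15, pandas 2.3.3, numpy 2.4.6 and scipy 1.17.1, and drawn with matplotlib 3.10.9. Loop PETs were scaled per 1000000 filtered PETs (ppm), same-anchor PETs per 1000000 same-anchor PETs, and both also by chromosome 5. Shares have Clopper-Pearson intervals and ratios exact conditional intervals, at 95%, and a count of 0 was set to 3 PETs for a limit. Promoter anchors were those within 2.5 kb of a start site known to 1 kb. A call was a fold of 2 with at least 10 PETs in the 2 libraries together. Ratios and calls were tested on simulated data. Filtered loop PETs were 222113 in LS513, 152421 in SW620, 81579 in HCT116 and 13885 in SW480.

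The named loops were the 3 with most PETs in each line, those between promoters of the 4 genes, and partners of the promoter anchors; partners of the TERT flank, the loops before NKD2 and the regions described beside TERT were picked after their values were seen. The locus, its genes and the lists were chosen with earlier results of these data known. Other genes of the window, telomerase and Wnt genes elsewhere, and cell type markers were not analysed here, since no hg19 annotation was used. Alternatives covered the scaling, the interval around start sites, minimum PETs, the deposited rate and the choice of anchors.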

Additional observations from a re-analysis of the deposited data

How the results depend on the processing

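Of 78 alternative values, 55 kept their direction and moved within counting error (within 1.5 times for counts of anchors). Another 19 moved further and 4 changed direction, and the cause was not tested. Some of the 55 could not move. At NKD2 and SLC12A7, 1 kb and 10 kb each side reached the same anchors and repeated the same counts. Anchor length was 144 kb in both LS513 and HCT116. For TERT, those of SW620 over LS513 rest on 0 PETs, where SW620 had no anchor to count. The direction changed for same-anchor PETs of SW620 per kb of anchor (0.667 against LS513, 0.365 against SW480), for loop PETs of SW620 over SW480 at anchors that overlap in all libraries (0.628, from 62 and 9 PETs), and for same-anchor PETs of NKD2 in SW620 over LS513 per chromosome 5 (1.00). Scaling by chromosome 5 gave, for LS513 over HCT116, 2.04 in loop PETs and, in same-anchor PETs, 1.74 for the locus, 1.90 for NKD2 and 2.14 for SLC12A7. It gave same-anchor ratios of 1.79 for SW620 over LS513, 2.42 for SW620 over SW480 and 3.33 for SLC12A7 in SW620 over LS513. Loop PETs of LS513 over HCT116 were 4.39 per all same-chromosome PETs, 2.02 per same-anchor PET of the locus and 1.38 at anchors overlapping in all libraries (15 and 4 PETs). Loop PETs of SW620 over LS513 were 1.42 per same-anchor PET, 2.79 with a deposited rate under 0.01, 6.02 at overlapping anchors and 2.55 between merged regions. SW620 over SW480 in loop PETs was at least 9.39 with a deposited rate under 0.01 (393 PETs and 0, set to 3 for the library). At overlapping anchors same-anchor ratios were 2.88 for SW620 over LS513 and 1.53 for SW620 over SW480. Overlapping anchors were taken from each library's own set, and the NKD2 anchor was kept in SW620 but not in LS513 or HCT116. Of the 9 SW480 PETs behind 0.628, 6 lay inside 1 SW620 anchor. The ratios at overlapping anchors thus do not compare like anchors. At TERT, 10 kb each side brought in the SW620 anchor with 4 PETs against 41 in LS513 (0.142), while 1 kb each side reached no anchor and gave no value. With a fold of 3, 2 locus anchors were higher in LS513 in same-anchor PETs, against 6 with a fold of 2. The alternatives between merged regions and without the most distant contact were chosen after seeing the data. No paired analysis was possible because each line has 1 library. Depth limits SW480 most, where the exact interval for 0 PETs reaches 266 ppm.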

Other observations

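Contacts of the locus outside its own neighbourhood were also counted. Interchromosomal pairs with an anchor in the locus held 253 PETs in SW620, 205 in LS513, 44 in HCT116 and 17 in SW480, or 4475, 3078, 1437 and 4263 ppm of interchromosomal PETs, lowest in HCT116 as for the loops within the chromosome. Pairs more than 2 Mb apart on chromosome 5 held 12, 34, 3 and 3 PETs in the same order. Loops with 1 anchor in the locus had their other anchor at lower coordinates for 95 PETs in SW620, 70 in LS513, 16 in HCT116 and 2 in SW480, and at higher coordinates for 6, 0, 0 and 0. The PET-weighted median span of the locus's loops was 89.8 kb in SW620, 107 kb in LS513, 111 kb in HCT116 and 51.1 kb in SW480, against 67.7, 72.5, 66.8 and 52.5 kb in the whole libraries.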
